A study of Mus musculus with 6 samples.

Results

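The transcripts of 9 transcription factors that direct the development of monocytes, macrophages and granulocytes were followed in monocytes from mice with nephrotoxic nephritis, a kidney inflammation driven by antibodies. The factors are Spi1 (which encodes PU.1), Irf8, Cebpa, Cebpb, Cebpe, Maf, Gfi1, Klf4 and Runx1. They were taken by symbol from the deposited count table, where each has 1 of the 24047 rows. They were picked by name and not by a cut on measured values, but with earlier results of these data known. The comparison was between 3 libraries of kidney monocytes (replicates 7, 8 and 22) and 3 libraries from spleen and bone marrow (replicates 2, 24 and 26). All libraries came from wild-type mice of the strain labelled C5/Bl6, aged 8 to 10 weeks, and the 10 mice of the series were killed on day 13 of nephritis. Kidney cells, labelled double_pos, were enriched for monocytes with a kit and then sorted. Spleen and marrow cells are labelled double, with no account of their isolation, and the labels name no marker for either sort. Nothing in the labels tells whether a library is 1 animal or a pool, so the p-values below measure only the spread between these libraries. With no healthy mice, and with isolation described for 1 organ only, the effects of tissue, inflammation and handling cannot be told apart.

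These factors act in a known order. RUNX1 and PU.1 open the myeloid programme in blood progenitors, and C/EBPα carries progenitors to the granulocyte and monocyte stage. IRF8 and KLF4 then favour monocytes, while GFI1 and C/EBPε favour neutrophils, GFI1 in part by repressing monocyte genes. C/EBPβ acts in mature and stress-induced myeloid cells, and c-MAF in differentiated macrophages.

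Of the 8 factors that could be tested, Maf alone rose in the kidney libraries, by 10.1-fold, and none was called lower. Irf8 overlapped between the groups and was not called. Spi1 and Cebpb were a little lower in every kidney library without passing the test. Klf4, Runx1 and Cebpa were above the spleen and marrow mean in kidney replicates 7 and 8 and below it in kidney replicate 22. Cebpe was near the detection limit in kidney replicates 7 and 8 and at its highest of all in kidney replicate 22. That library carried neutrophil transcripts, as did every spleen and marrow library. Gfi1 had at most 10 counts in any library and was not tested.

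Total counts ran from 7311991 to 9727489 in spleen and marrow and were 7938223, 7824387 and 3492391 in kidney replicates 7, 8 and 22. Levels are given as CPM (counts scaled to library size by TMM), and 3 counts correspond to 0.322 to 0.881 CPM. All 10 defining monocyte and macrophage markers checked were detected in both groups. The libraries of the kidney group lay farther apart than those of spleen and marrow, and kidney replicate 22 stood farthest apart. Across genes, which are not independent replicates, the correlation of log2 CPM was 0.875 and 0.872 between that library and the other kidney libraries, against 0.947 between kidney replicates 7 and 8. It was 0.985 to 0.993 among the spleen and marrow libraries. In a chi-square test of their counts, spleen and marrow replicates 24 and 26 gave 2.86 per degree of freedom, above the level of sampling noise, while all other pairs within a group gave 22.2 to 59.7. Of 10626 genes tested with edgeR, 7.83% were called higher in kidney and 5.9% lower at an adjusted p under 0.05. In 37.9% the kidney and spleen and marrow values did not overlap.

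Of the factors, 8 passed the filter on low counts. Cebpe passed it through the spleen and marrow libraries, because 2 of the kidney libraries lay under or near its minimum. Gfi1 did not pass it and was not tested. Against the 7.83% of all tested genes called higher, 1 of the 8 tested factors was (12.5%), and 0 of 8 were called lower against 5.9%. At an unadjusted p under 0.05 in edgeR, Maf was higher and Spi1 was lower. With limma-voom 1 factor, Cebpe, was called lower. The values of 3 of the 8 (Maf, Spi1 and Cebpb) did not overlap between groups, a share near the 37.9% of all tested genes. The median log2 fold change of the 8 tested factors, kidney minus spleen and marrow, was -0.18, and that of all tested genes was 0.05.

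**Figure D1:**
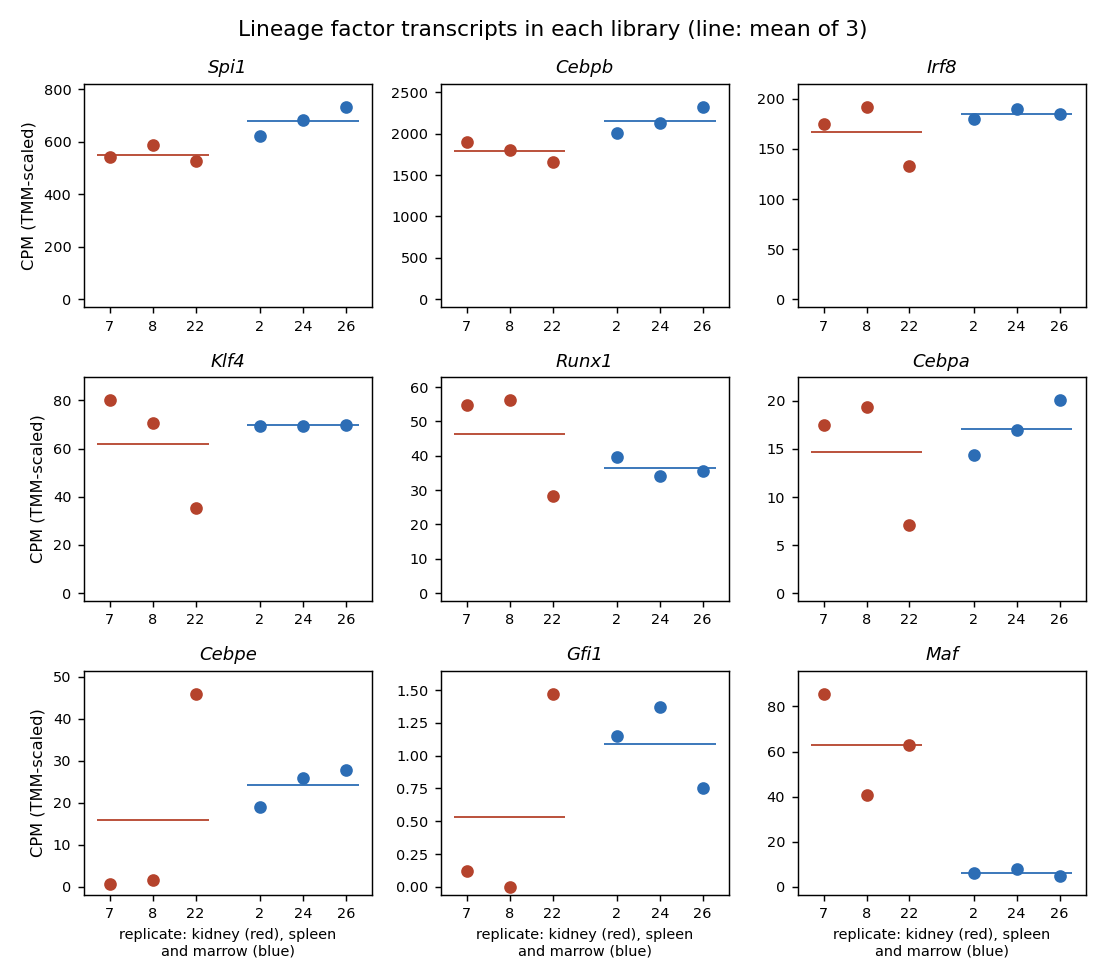
Level of each of the 9 factors in CPM (linear axes, TMM-scaled) in each library, with kidney in red and spleen and marrow in blue; points are single libraries and lines are means of 3. Maf lies between 40.6 and 85.4 CPM in kidney and between 4.93 and 7.80 CPM in spleen and marrow, while Cebpe ranges from 0.593 to 45.8 CPM within the kidney group.

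Maf, a basic leucine zipper factor of macrophages that takes part in the expression of anti-inflammatory and scavenging genes, was measured at 85.4, 40.6 and 62.8 CPM in kidney replicates 7, 8 and 22. It was at 5.97, 7.80 and 4.93 CPM in spleen and marrow replicates 2, 24 and 26. Every kidney library was therefore above every spleen and marrow library, the lowest of the one at 40.6 CPM and the highest of the other at 7.80 CPM. The means were 62.9 ± 22.4 CPM in kidney and at 6.23 ± 1.45 CPM in spleen and marrow (SD, n = 3 each). The log2 fold change was 3.34 ± 0.34 (SE), a 10.1-fold rise with a 95% interval of 5.84 to 17.5, and the adjusted p in edgeR's quasi-likelihood test was 0.00128. The rise passed the threshold under all 16 alternatives of processing, with log2 fold changes of 2.04 to 3.57. In kidney replicate 22, which stood apart for other factors, the Maf level lay between those of the other kidney libraries. Markers of other cell types also moved with the kidney group. The 8 listed kidney tubule markers summed to 172, 50.8 and 456 CPM in kidney replicates 7, 8 and 22 and to 0.115 to 0.274 CPM in spleen and marrow, with all 3 tested ones called higher and Lrp2, Umod, Slc12a1, Aqp2 and Cdh16 at 0 in spleen and marrow. Those 3 passed the filter on low counts through the kidney libraries, where they are high, so their calls could only go in that direction. The 6 listed platelet markers summed to 300.1 to 435 CPM in kidney, most of it Pf4, and to 6.89 to 9.58 CPM in spleen and marrow, with all 3 tested ones called higher, of which 2 were above the filter in every library. For the 8 endothelial markers the sums were 23.5, 828 and 13.2 CPM in kidney replicates 7, 8 and 22 and to 4.38 to 10.1 CPM in spleen and marrow, with neither of the 2 tested ones called. Maf was lowest in kidney replicate 8, where the endothelial sum was highest and the tubule sum lowest. The part of these cell types in the Maf level was not tested. In bulk libraries such as these, more cells of a type and more RNA per cell cannot be told apart.

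Of the small MAF proteins, which lack an activation domain, Maff, Mafg and Mafk had log2 fold changes of 0.41, 0.03 and -0.33 and none was called.

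Among 12 genes linked to MAF in macrophages, 9 were tested, and 8 were called higher (88.9%, against 7.83% of all tested genes) and none lower. The median log2 fold change of the 9 was 4.46. The list was drawn up with earlier results of these libraries known, so its count is not independent evidence of direction. Only 5 of the 9 were above the filter in every library, and all of those 5 were called. For Mrc1, Gas6 and Cd36 all libraries were above it in kidney but not in spleen and marrow, so the filter favoured genes high in kidney there, and Cd163 had libraries on both sides of it in each group. C1qa, C1qb and C1qc, which encode the subunits of complement C1q, had log2 fold changes of 8.18 ± 0.22, 7.22 ± 0.34 and 7.47 ± 0.24 (SE). The mannose receptor gene Mrc1 was at 29.6, 18.4 and 17.0 CPM in kidney and at 1.15, 0.547 and 1.18 CPM in spleen and marrow, a log2 fold change of 4.46 ± 0.45 (adjusted p = 0.00117, edgeR). Cd163, the haemoglobin scavenger receptor, was not called at 6.64, 2.65 and 0 CPM in kidney and at 1.18 to 1.61 CPM in spleen and marrow. Il10, Cd5l and Folr2 had too few counts to be tested. Without any 1 of the spleen and marrow libraries, 5 of the MAF linked genes were called.

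**Figure D2:**
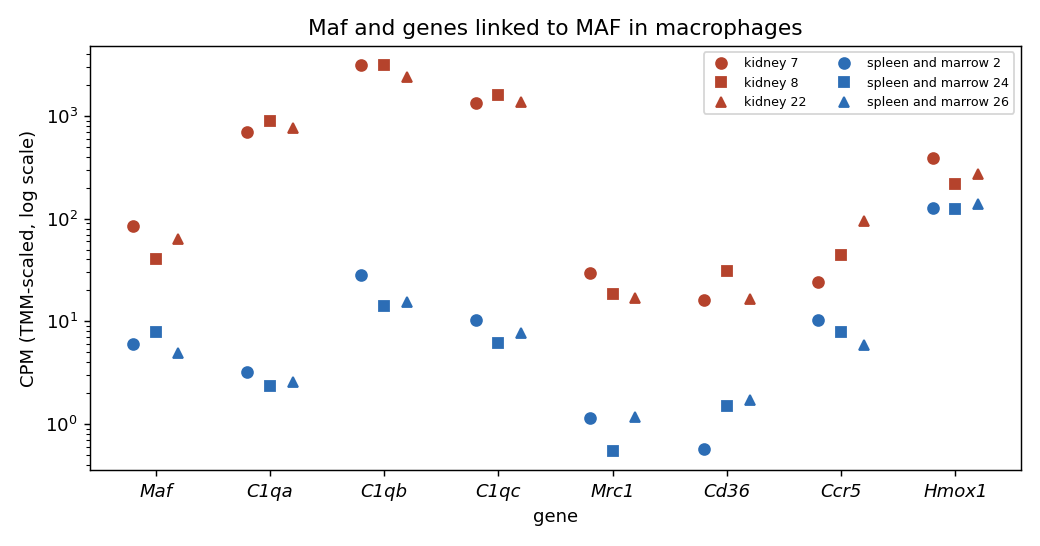
Maf and 7 called genes linked to MAF, in CPM on a log axis; each symbol is 1 library, with kidney in red and spleen and marrow in blue. For each gene shown all 3 kidney libraries lie above all 3 spleen and marrow libraries; Gas6, also called, is left out because it is at 0 in 2 libraries.

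Spi1 encodes PU.1, the ETS factor on which the myeloid lineage depends. Its levels were 542, 587 and 527 CPM in kidney replicates 7, 8 and 22 and 622, 684 and 734 CPM in spleen and marrow replicates 2, 24 and 26. All kidney values were below all spleen and marrow values, by a small margin. Its log2 fold change was -0.30 ± 0.12 (SE, 95% interval -0.59 to -0.02), and the edgeR p of 0.040 became 0.157 after adjustment. No alternative gave a call.

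Of 18 PU.1 target genes, all tested, 8 were called higher, 1 was called lower and 9 were not called, and the median log2 fold change was 0.63. The receptor of macrophage colony-stimulating factor, Csf1r, stood at 457, 277 and 371 CPM in kidney and at 109, 119 and 120 CPM in spleen and marrow (log2 fold change 1.67 ± 0.20, edgeR adjusted p = 0.00194). Cd14, a co-receptor for lipopolysaccharide, and the inhibitory antibody receptor Fcgr2b rose by 1.59 ± 0.16 and 1.29 ± 0.15 on the log2 scale. Lyz2, the lysozyme gene of monocytes, was called lower with a log2 fold change of -0.60 ± 0.15 and an adjusted p of 0.0342. That call was lost under 9 of the 16 alternatives, kidney replicates 7, 8 and 22 left out in turn among them. The 9 include both settings on FPKM, where Lyz2 is listed at 0 in spleen and marrow replicate 26 although its count is high there. The PU.1 transcript thus lay slightly lower in kidney, without a call, while 8 of its listed targets were called higher. The calls higher are 44.4% of the 18 and the call lower 5.56%, against 7.83% and 5.9% of all tested genes. This list too was drawn up with earlier results of these libraries known, so its count is not independent evidence of direction. The part of PU.1 in the levels of these genes was not tested.

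Of the ETS relatives, Spic, a factor of iron-recycling macrophages, was at 27.3, 21.6 and 26.1 CPM in kidney and at 7.47, 3.01 and 4.40 CPM in spleen and marrow. Its log2 fold change was 2.33 ± 0.38 (edgeR adjusted p = 0.00758), and the adjusted p was 0.0621 without spleen and marrow replicate 26. Spib, the B cell and plasmacytoid relative, had 1 count over the kidney group and 6 over spleen and marrow and was not tested.

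Cebpb, the C/EBP factor of mature myeloid cells, was the most abundant of the 9. It was measured at 1895, 1807 and 1660 CPM in kidney replicates 7, 8 and 22 and at 2001, 2130 and 2323 CPM in spleen and marrow replicates 2, 24 and 26. The groups did not overlap, but the gap between the highest kidney and the lowest spleen and marrow value was small. On the log2 scale the difference was -0.27 ± 0.12 (SE) and the edgeR adjusted p was 0.182. Its relative Cebpd, an acute-phase factor, was at 173, 176 and 149 CPM in kidney and at 239, 294 and 310 CPM in spleen and marrow. Cebpd was called lower at a log2 fold change of -0.76 ± 0.15 (adjusted p = 0.016, edgeR). Without spleen and marrow replicate 24 or 26 its adjusted p was 0.0844 or 0.0994.

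Irf8, the interferon regulatory factor that favours monocytes and dendritic cells over granulocytes, stood at 175, 192 and 133 CPM in kidney and at 180, 190 and 185 CPM in spleen and marrow. The groups overlapped, and the kidney group spread more widely because replicate 22 was low. For Irf8 the log2 fold change was -0.15 ± 0.16 (SE), its 95% interval ran from -0.53 to 0.23, and the edgeR adjusted p was 0.618. Of 14 IRF8 linked genes 13 were tested, and 1 was called higher, 7.69% of those tested, near the 7.83% of all genes. Without kidney replicate 22 there were 2. The called gene was Batf3, a partner of IRF8 in conventional dendritic cells, at 63.6, 78.0 and 92.2 CPM in kidney and at 13.4, 14.5 and 21.7 CPM in spleen and marrow (log2 fold change 2.23 ± 0.26, adjusted p = 0.00184, edgeR). Flt3, a receptor of dendritic cells and progenitors, was not called, at 52.1, 21.7 and 5.58 CPM in kidney and at 12.7 to 30.9 CPM in spleen and marrow, and the dendritic cell factor Zbtb46 had too few counts to be tested. Within the IRF family, Irf2, a repressor of interferon-driven transcription, was called higher, at a log2 fold change of 0.61 ± 0.16, and lost the call under 8 of the 16 alternatives.

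Klf4, a zinc finger factor needed for monocyte differentiation, was at 80.0, 70.6 and 35.2 CPM in kidney replicates 7, 8 and 22. The spleen and marrow libraries were nearly level, at 69.6, 69.5 and 70.0 CPM. Kidney replicates 7 and 8 were therefore at or above the other group, and replicate 22 was below all. The log2 fold change was -0.16 ± 0.28 (SE, adjusted p = 0.760, edgeR), and 0.09 (adjusted p = 0.671) without kidney replicate 22. Among 11 KLF4 linked genes, 9 were tested, of which 3 were called higher (5 without kidney replicate 7) and 2 lower. With all libraries that is 33.3% higher and 22.2% lower, against 7.83% and 5.9% of all tested genes. Of the 9, 6 were above the filter in every library, with 1 of the 3 calls higher, Cd14, among them, whereas Arg1 and Mrc1 passed through the kidney libraries, where they are high. Ly6c2, which marks classical monocytes, was among the lower ones, with a log2 fold change of -3.11 ± 0.34. Arg1, an arginase of alternatively activated macrophages, had the widest difference of the 9. There were 4317 Arg1 counts over the kidney libraries and 2 over spleen and marrow. The ratio of these pooled counts was 2769 scaled by library size (95% exact binomial interval 766 to 22874, counting error only).

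Runx1, which encodes a subunit of core binding factor, was at 54.9, 56.1 and 28.2 CPM in kidney replicates 7, 8 and 22 and at 39.7, 34.1 and 35.5 CPM in spleen and marrow. Again replicate 22 was the lowest of the kidney libraries and lay below the other group, while the other kidney libraries lay above it. Over all libraries the log2 fold change was 0.36 ± 0.28 (SE, adjusted p = 0.448, edgeR). Without kidney replicate 22 it was 0.58 and passed the threshold, with an adjusted p of 0.0292. The paralog Runx3, which acts in lymphocytes and in some mononuclear phagocytes, was at 39.0, 27.0 and 36.7 CPM in kidney and at 11.6, 8.48 and 10.9 CPM in spleen and marrow. Runx3 was called higher at a log2 fold change of 1.72 ± 0.26 (adjusted p = 0.00577, edgeR). Their shared partner Cbfb had a log2 fold change of 0.19 ± 0.22 and was not called. Of 10 RUNX1 linked genes 7 were tested and 1, Csf1r, was called higher (14.3%, against 7.83% of all tested genes). Without kidney replicate 8 there were 2.

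Cebpa, the C/EBP factor of early granulocyte and monocyte progenitors, was at 17.5, 19.3 and 7.05 CPM in kidney replicates 7, 8 and 22, from 148, 153 and 24 counts. In spleen and marrow it was at 14.4, 17.0 and 20.0 CPM. The groups overlapped, with kidney replicate 22 below all other libraries. The log2 fold change was -0.21 ± 0.39 (SE, 95% interval -1.11 to 0.70, adjusted p = 0.777, edgeR), and 0.09 (adjusted p = 0.802) without kidney replicate 22. In all, 6 of the 8 tested factors (Spi1, Irf8, Cebpa, Cebpb, Klf4 and Runx1) had their lowest level in kidney replicate 22, as had 35.4% of all tested genes. In that library Cebpa, Klf4 and Runx1 were at 0.382, 0.468 and 0.508 of the mean of kidney replicates 7 and 8.

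**Figure D3:**
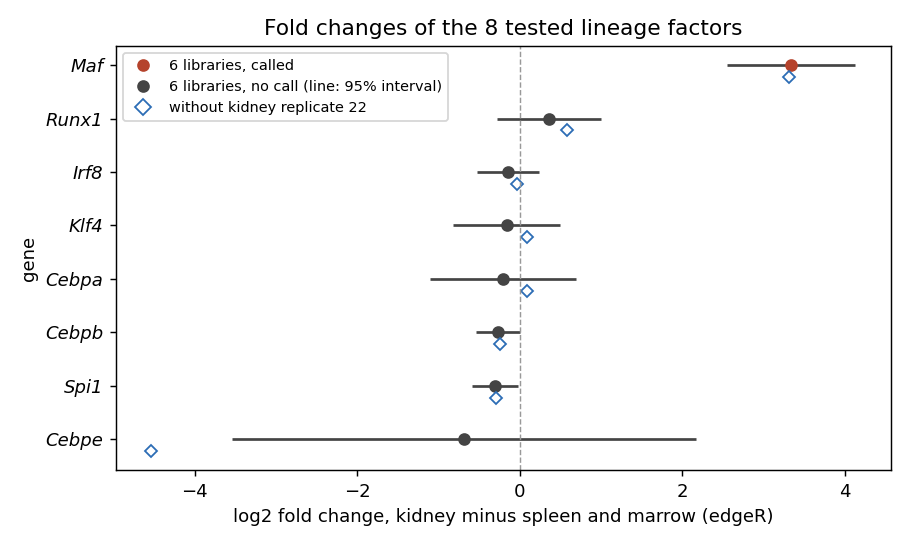
Log2 fold change, kidney minus spleen and marrow, of the 8 tested factors from edgeR, with 95% intervals as lines, and the same without kidney replicate 22 as open diamonds. Maf stays at 3.34 and 3.32, Runx1 moves from 0.36 to 0.58, and Cebpe moves from -0.68 to -4.54.

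Cebpe, the C/EBP factor of late granulocyte maturation, on which neutrophil secondary granules depend, spread over a wide range within the kidney group. It had 5, 12 and 156 counts in kidney replicates 7, 8 and 22, or 0.593, 1.52 and 45.8 CPM, and stood at 19.1, 25.99 and 27.8 CPM in spleen and marrow. The highest kidney library was 77.3 times the lowest and 1.89 times the spleen and marrow mean. Kidney replicates 7 and 8 were thus below every spleen and marrow library and replicate 22 was above every one. With all libraries its log2 fold change was -0.68 ± 1.23 (SE, 95% interval -3.54 to 2.17, adjusted p = 0.766, edgeR). Without kidney replicate 22 it was -4.54, with an adjusted p of 0.000569, and limma-voom on all libraries gave -3.59 with an adjusted p of 0.0297. Whether Cebpe differed between the groups therefore rested on 1 library and on the test.

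The sums of neutrophil markers moved with it, though not every marker did. The 10 neutrophil precursor markers, all tested, summed to 549, 1476 and 16526 CPM in kidney replicates 7, 8 and 22 and to 10323 to 12407 CPM in spleen and marrow. Of 10 mature neutrophil markers, 8 were tested. They summed to 886, 3265 and 29670 CPM in the kidney libraries and 16831 to 20818 CPM in spleen and marrow. Cxcr1 was at 0 in every library, and the defining marker Ly6g was not analysed here. S100a8 and S100a9, which monocytes also express, made up most of that sum. The listed eosinophil, basophil and mast cell markers summed to 0.119, 0.253 and 172 CPM in kidney replicates 7, 8 and 22. In spleen and marrow the sum of these markers ran from 211 to 1599 CPM. The neutrophil sums and this sum ordered the kidney libraries as Cebpe did, and their part in the Cebpe level was not tested.

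The order of the libraries differed among the granule genes, which was noticed after their values were seen and was not tested. Cebpe ran in the order kidney 22, spleen and marrow 26, 24 and 2, then kidney 8 and 7, and 39 of the 10626 tested genes (0.367%) had this order. They included 4 of the 14 listed granule genes, Camp, Ngp, Ltf and Lcn2, which belong to secondary granules, and 2 of the 8 tested mature neutrophil markers, S100a8 and S100a9. Camp, the cathelicidin, was at 60.4, 347 and 5261 CPM in kidney replicates 7, 8 and 22 and at 1921, 2792 and 2959 CPM in spleen and marrow replicates 2, 24 and 26. The genes of primary granules, Elane, Mpo, Prtn3 and Ctsg, together with Ms4a3 of early progenitors, were instead highest in spleen and marrow replicate 2 and lowest in kidney replicate 7. Elane, neutrophil elastase, was at 2.37, 25.7 and 245 CPM in kidney and at 1727, 1078 and 1162 CPM in spleen and marrow. The other 5 listed genes followed neither order. Itgb2l and Cd177 were highest in kidney replicate 22 without sharing the rest, and Mmp8, a collagenase of neutrophil granules, was at 139 CPM in kidney replicate 22 and at 279 to 422 CPM in spleen and marrow. In kidney replicate 22, Camp, Ngp, Ltf and Lcn2 exceeded the spleen and marrow mean, while Elane and Mmp8 were below it. Of the 14 granule genes, 3 were called lower (Prtn3, Mmp8 and Ctsg) and none higher, with a median log2 fold change of -0.87. The share called lower was 21.4%, against 5.9% of all tested genes. Of the 14, 10 were above the filter in every library, 2 of the 3 called among them, whereas Ctsg passed through spleen and marrow, where it is high. Leaving out kidney replicate 22 gave 12 calls lower, and leaving out a spleen and marrow library gave 1 or 2. Prtn3, proteinase 3, was at 30.1, 39.7 and 109 CPM in kidney and at 1171, 627 and 669 CPM in spleen and marrow, and its call held under all 16 alternatives (log2 fold change -3.81 ± 0.53, adjusted p = 0.004, edgeR). The calls of Mmp8 and Ctsg were lost under 3 and 7 of them.

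**Figure D4:**
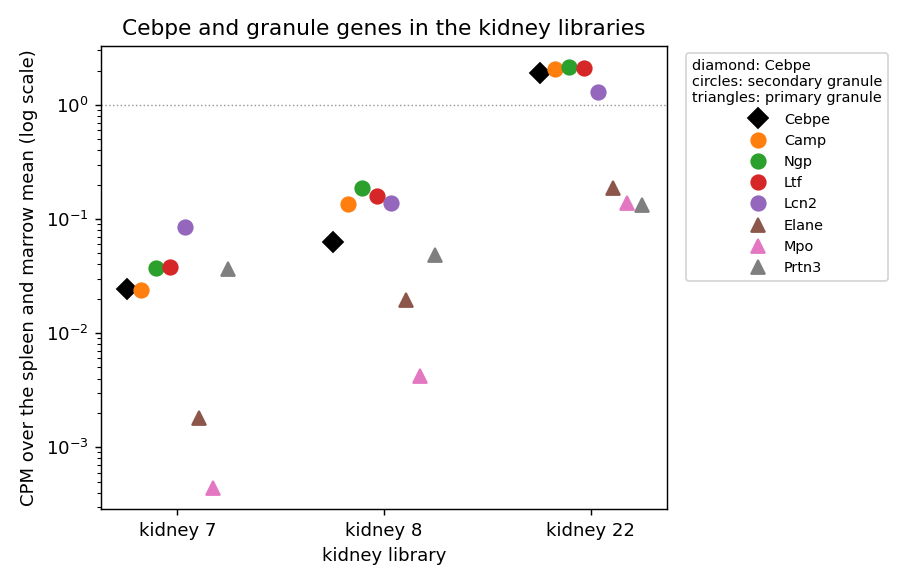
Level of Cebpe (diamond), of 4 secondary granule genes (circles) and of 3 primary granule genes (triangles) in each kidney library, as CPM divided by the spleen and marrow mean, on a log axis; the dotted line marks equality. Cebpe and the 4 secondary granule genes shown exceed the spleen and marrow mean in kidney replicate 22, Cebpe by 1.89 times, while the 3 primary granule genes shown stay under the line in every kidney library; the lowest point, Mpo in kidney replicate 7, is 1 count.

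Gfi1, a zinc finger repressor that favours granulocytes over monocytes, had 1, 0 and 5 counts in kidney replicates 7, 8 and 22 and 10, 10 and 7 counts in spleen and marrow replicates 2, 24 and 26. These are 0.119, 0 and 1.47 CPM against 1.15, 1.37 and 0.750 CPM, and the kidney libraries lay on both sides of the spleen and marrow ones. Kidney replicate 22, at 3492391 counts, had the highest CPM from 5 counts. Pooled over libraries, kidney held 6 counts and spleen and marrow 27, a ratio of 0.285 scaled by library size (95% exact binomial interval 0.0963 to 0.705, counting error only). Without kidney replicate 22 the ratio was 0.0574. With no filter on low counts, edgeR gave an adjusted p of 0.611. Gfi1 and Cebpe, the 2 factors of the granulocyte side, were both at their highest in kidney replicate 22 and at their lowest in kidney replicates 7 and 8. The paralog Gfi1b, of red cells and platelets, had 15 and 24 counts over the groups and was not tested.

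Because IRF8 and GFI1 stand for opposite fates, the start regions of their genes are shown, from RefSeq on GRCm38.p6, 250 bases before to 50 after a start. The counts were made on mm9, and no position in them is used here. Capitals mark matches, on either strand, to the short motifs AATCAC (GFI1), TTCNNNGAA (STAT), TTGCNNAA (C/EBP), TGCTGA (MAF), GAGGAA (PU.1) and TGTGGT (RUNX).
Irf8, chr8:120736108-120736407, plus strand: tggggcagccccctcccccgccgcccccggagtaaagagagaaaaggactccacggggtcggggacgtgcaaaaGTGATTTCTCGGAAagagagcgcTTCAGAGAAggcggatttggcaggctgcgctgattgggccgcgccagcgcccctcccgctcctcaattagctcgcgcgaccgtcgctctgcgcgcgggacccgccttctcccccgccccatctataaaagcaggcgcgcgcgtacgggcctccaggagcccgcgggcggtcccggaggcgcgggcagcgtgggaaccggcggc
Gfi1, chr5:107725756-107726055, minus strand: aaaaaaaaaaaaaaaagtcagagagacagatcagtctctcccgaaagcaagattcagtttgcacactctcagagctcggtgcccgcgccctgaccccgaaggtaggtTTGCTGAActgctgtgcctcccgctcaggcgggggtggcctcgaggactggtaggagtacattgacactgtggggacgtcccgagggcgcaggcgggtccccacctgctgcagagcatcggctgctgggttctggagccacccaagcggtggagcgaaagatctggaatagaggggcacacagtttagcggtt
The Irf8 window holds a GFI1 match on the reverse strand at bases 75 to 80, which shares base 80 with the first of its STAT matches (bases 80 to 88 and 98 to 106). The Gfi1 window holds a C/EBP match at bases 108 to 115 with a MAF match inside it. Such matches are common. Of 32851 RefSeq windows of this length, 10.4% held the GFI1 motif, 8.3% the STAT motif, 10.8% the C/EBP motif and 19.5% the MAF motif. Start regions were found for 6 of the 9 factors (9 windows). The 2 Runx1 windows each held a GFI1 match, the distal one also 2 RUNX matches (16.8% of windows) and the other a PU.1 match (28.3%). A second Irf8 window held a MAF match, and the Cebpa, Cebpb, Klf4 and second Gfi1 windows held none. A match describes letters only and shows no binding.

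The factors could be ranked against each other by the deposited FPKM values, which are scaled by transcript length. Cebpb led at 448 ± 111 FPKM in kidney and 567 ± 44.3 FPKM in spleen and marrow (mean ± SD, n = 3), followed by Spi1 at 188 ± 45.4 and 247 ± 21.5 and Irf8 at 25.3 ± 8.52 and 29.1 ± 0.824. This order held in all 6 libraries with no overlap of neighbours. Gfi1 was the last of the 9 in all of them, at 0.0563 ± 0.0829 FPKM in kidney and 0.166 ± 0.0469 FPKM in spleen and marrow. The order between these ends differed. In spleen and marrow it was Klf4 (10.03 ± 0.0682), Cebpe (8.55 ± 1.51), Cebpa (2.38 ± 0.373), Runx1 (2.24 ± 0.166) and Maf (0.621 ± 0.138), where only Cebpa and Runx1 overlapped. In kidney it was Klf4 (8.74 ± 4.60), Maf (5.91 ± 2.57), Cebpe (4.07 ± 6.37), Runx1 (2.52 ± 0.977) and Cebpa (2.00 ± 1.11), and each of these overlapped its neighbour. Maf was the fifth of the 9 in every kidney library and the eighth in every spleen and marrow library. Cebpe was the eighth in kidney replicates 7 and 8, the fourth in kidney replicate 22 and the fifth in all of spleen and marrow.

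Ratios between factors of opposite or successive roles overlapped between the groups in 4 pairs, each with a Benjamini-Hochberg adjusted p of 1 over the 5 pairs tested. With 3 against 3 libraries an exact two-sided permutation test cannot go below p = 0.1. The Irf8 to Cebpa ratio of counts was 9.99, 9.93 and 18.9 in kidney and 12.5, 11.2 and 9.22 in spleen and marrow, overlapping, with an exact permutation p of 0.8. The Klf4 to Cebpe ratio was 135, 46.6 and 0.769 in kidney and 3.65, 2.67 and 2.52 in spleen and marrow (exact permutation p = 0.4). Kidney replicate 22 was thus the only library with more counts of Cebpe than of Klf4. The Cebpb to Cebpa and Spi1 to Cebpa ratios had mean log2 differences of 0.08 and 0.04, both with an exact permutation p of 1. Irf8 counts exceeded those of Gfi1 in every library, by 90.6 to 1478 times where Gfi1 had a count.

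The gene most like each tested factor in its log2 CPM over the 6 libraries is given as a description, since many genes share the difference between groups or the position of 1 library. Cebpe was closest to Lcn2 (Pearson r 0.995), lipocalin of secondary granules, and Pglyrp1 (0.995), a peptidoglycan-binding granule protein. Maf was closest to Marcks (0.998), a substrate of protein kinase C, and Ctdnep1 (0.997). Marcks was at 241, 166 and 216 CPM in kidney and at 71.3, 75.0 and 68.5 CPM in spleen and marrow. Irf8 was closest to Dnajc24 (0.999) and Uba3 (0.999), Cebpa to Pex14 (0.999) and Sertad1 (0.994), and Klf4 to Tigd2 (0.998) and Pgam5 (0.997). For these, and for Runx1 with Kdm1a (0.986) and Guca1a (0.985), the low level in kidney replicate 22 was shared. Spi1 was closest to Srd5a3 (0.994) and Prkag1 (0.990), and Cebpb to Eif4h (0.986) and Vcl (0.983).

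Most other members of the factors' families were not called. Of 33 relatives 30 were tested, and 6 were called higher (Runx3, Spic, Ets2 and Irf2 among them) and 1 lower (Cebpd), with a median log2 fold change of 0.21. These calls are 20% and 3.33% of the 30, against 7.83% and 5.9% of all tested genes. Leaving out a spleen and marrow library gave 2 or 3 calls higher, and leaving out kidney replicate 22 gave 9. Of 36 other regulators of myeloid fate, 27 were tested, of which 8 were called higher and 1 lower, with a median of 0.75. These calls are 29.6% and 3.7% of the 27, against 7.83% and 5.9% of all tested genes. Of the 27, 22 were above the filter in every library, with 6 of the 8 calls higher among them and not the call lower. Egr2 and Bach2 passed the filter through the kidney libraries, where they are high. Leaving out spleen and marrow replicate 24 or 26 gave 4 calls higher, leaving out kidney replicate 22 gave 12, and leaving out kidney replicate 8 gave 3 calls lower. Mef2c, a MADS box factor that favours monocytes over granulocytes, was at 60.3, 52.7 and 54.6 CPM in kidney and at 22.2, 23.5 and 19.9 CPM in spleen and marrow (log2 fold change 1.35 ± 0.18, adjusted p = 0.00365, edgeR). Bach2, a repressor better known from lymphocytes, was at 11.02, 8.72 and 17.0 CPM against 0.689, 1.23 and 1.07 CPM (log2 fold change 3.59 ± 0.49, adjusted p = 0.00374), and it passed the filter through the kidney libraries. Myb, a factor of progenitors, was the one called lower, at 0.474, 1.01 and 0 CPM in kidney and at 5.40, 4.93 and 4.40 CPM in spleen and marrow (log2 fold change -3.10 ± 0.78, adjusted p = 0.0368). It passed through spleen and marrow, and its adjusted p was 0.155 to 0.168 without any 1 of those libraries and 0.0888 without kidney replicate 7. The 10 listed markers of proliferating cells, which summed to 1727 to 2031 CPM in spleen and marrow and 65.9 to 297 CPM in kidney, were all called lower, and their part in the Myb level was not tested.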

How the data were processed

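The deposited table of raw counts per gene symbol and the authors' FPKM values were used for 6 libraries. Per the labels' protocols, SMART-Seq v4 cDNA from 2 ng of RNA was sheared to about 150 bp and made into libraries that do not keep strand, so overlapping antisense genes cannot be told apart. The submitters' processing notes name STAR 2.5, Cufflinks 2.2.1, bcl2fastq 2.18 and the build mm9 without their roles. Neither the counter nor its annotation is given in the sources used. The factors and gene lists were chosen with earlier results of these data known.

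Kidney was compared with spleen and marrow in edgeR 4.0.16 under R 4.3.3 (filterByExpr, minimum count 10 and so 1.27 CPM in 3 libraries; TMM; glmQLFit and glmQLFTest, two-sided; Benjamini-Hochberg over 10626 genes; calls at adjusted p under 0.05). SE is the log2 fold change over the square root of F, and intervals are 95%. The test was checked on simulated counts. FPKM ranked the factors by length-scaled level. Ratios of factors were tested by exact permutation (scipy 1.17.1). Named genes are the 9 factors, for each list and direction the called genes of smallest p (at most 3), and the 2 genes with the highest Pearson r with each tested factor (log2 CPM + 0.5, mean log2 CPM of at least 4); Flt3, Camp, Elane and other genes outside this rule were named after their values were seen. Of the genes in the lists, 3 are not reported here, nor is 1 ratio. Motifs were searched as letters on both strands. Alternatives were DESeq2 1.42.0, library-size or RLE scaling, other filters (none; 1 CPM in 3 libraries), limma-voom and limma-trend (limma 3.58.1) on log2 FPKM with pseudocounts of 1 or 0.1, a robust fit, a threshold of 0.01, each library left out, and spleen and marrow replicates 24 and 26 summed. Reads carry no molecular identifiers, so counting intervals and floors cover counting error only. Figures used matplotlib 3.10.9.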

Additional observations from a re-analysis of the deposited data

How the results depend on the processing

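Maf was called higher, with none of the other factors called in that direction, under each alternative except the one without kidney replicate 22, where Runx1 was called too. The count of factors called higher thus ran from 1 to 2 on leaving out a library. The count called lower ran from 0 to 1 on leaving out a library, since Cebpe was called without kidney replicate 22, and it was 1 with limma-voom. The sign of Cebpa and of Klf4 changed without kidney replicate 22: on leaving out each library the log2 fold change of Cebpa ran from -0.462 to 0.0865 and that of Klf4 from -0.377 to 0.0892, with no call at either end. The fold changes of Spi1, Irf8 and Cebpb kept their sign and stayed without a call under all 16 alternatives, with ranges of -0.42 to -0.24, -0.27 to -0.03 and -0.37 to -0.20. The pooled Gfi1 ratio ran from 0.0574 to 0.476 on leaving out a library.

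Over all genes, limma-voom called 737 higher and 838 lower, and limma-trend on log2(FPKM + 1) called 468 and 629, against 832 and 627 in edgeR. The median log2 fold change of all genes was 0.05 in edgeR and -0.06 and -0.14 on the FPKM scale with pseudocounts of 1 and 0.1. Leaving out any 1 spleen and marrow library left 260 to 289 genes higher and 179 to 208 lower, and leaving out kidney replicate 22 gave 1569 and 1215. Summing spleen and marrow replicates 24 and 26, the 2 most alike, left 299 higher and 201 lower. Maf stayed called with this sum (log2 fold change 3.34, edgeR adjusted p = 0.0120). Cebpd, Irf2, Lyz2 and Myb were among the genes that lost their call (edgeR adjusted p 0.0860, 0.162, 0.114 and 0.150). Lyz2 is listed at 0 FPKM in spleen and marrow replicate 26 although its count is high there, so its FPKM fold change is not given. Both limma-trend settings on FPKM are still counted among the 9 alternatives under which its call was lost. Depth limits Gfi1, which had 0 to 10 counts in a library. No paired analysis was possible because the groups share no replicate number.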
